A study of Mus musculus with 6 samples.

Results

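The genes described are 37 genes of sterol and fatty acid synthesis, taken by symbol from a list in pathway order, out of 24411 symbols in the count tables. They comprise 18 enzymes of the sterol pathway, 13 genes of fatty acid synthesis, desaturation, elongation and activation, and 6 genes that control or serve both (Insig1, Insig2, Srebf1, Srebf2, Scap and the sterol carrier gene Stard4). All 37 had a row in every table and passed the filter on low counts. RNA came from C2C12, an immortalised mouse myoblast line of wild-type genotype, as labelled. The cells had been differentiated to myotubes in medium with horse serum and then given the solvent DMSO or 10 µM Sardomozide dihydrochloride for 72 h. Sardomozide inhibits S-adenosylmethionine decarboxylase, the Amd1 product, which supplies the aminopropyl donor for polyamine synthesis. There were 3 libraries of each group. A single line was used, and no label states that the libraries of a group are separate cultures, so each p-value reflects no more than the variation among the libraries, which may be technical.

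The sterol pathway builds isoprenoid units from acetyl-CoA through mevalonate, joins them to squalene, and closes and trims the ring to cholesterol. Fatty acid synthesis starts from the same acetyl-CoA, which ATP-citrate lyase makes in the cytosol, and continues with desaturation and elongation. Both sets of genes are known targets of the SREBP transcription factors, which SCAP escorts out of the endoplasmic reticulum when membrane sterol is low and which INSIG proteins hold back when it is high.

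Library totals ran from 25496323 to 36709804 counts (two-sided exact permutation test between groups, p = 0.2, with 0.1 the lowest value that 3 against 3 can give). The 37 genes took between 0.678% and 0.719% of the counts, and their counts ran from 268 for Tm7sf2 to 86880 for Scd2. The 10 myotube markers summed to 17490 to 18892 CPM (counts scaled by library size with TMM factors) with DMSO and 18016 to 19395 CPM with Sardomozide. Within that list Myh8, the perinatal myosin gene, fell from 614 ± 14.2 to 397 ± 37.9 CPM and Myog, the myogenin gene, rose from 1108 ± 10.3 to 1313 ± 45.0 CPM (edgeR adjusted p = 1.2e-06 and 0.000547). The 6 myoblast and reserve cell markers summed to 589 to 599.8 CPM with DMSO and 546 to 562 CPM with Sardomozide, and the 8 markers of cycling cells to 332 to 356 and 348 to 404 CPM. The largest part of the myoblast sum was Myod1, with 277 ± 5.16 CPM with DMSO and 257 ± 9.63 CPM with Sardomozide (edgeR adjusted p = 0.0844). Of these 6 markers 5 had a negative fold change. Pax7 went the other way, from 87.5 ± 2.38 to 93.4 ± 6.34 CPM (edgeR adjusted p = 0.24). Of the myoblast and cycling cell markers, Mki67 and Bub1 rose and Spry1 fell. Of 8 adipocyte markers, Adipoq, Plin1, Lep, Cfd and Retn had no count in any library and the list summed to 26.7 to 33.9 CPM, almost all from Cebpa and Pparg. The part of these markers in the results was not tested. In bulk RNA, fewer cells of a type and less RNA per cell cannot be told apart.

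In myotubes given Sardomozide, 10 of the 37 genes were lower and 1 was higher than with DMSO, and 26 did not pass. The genes that fell were the sterol enzyme genes Hmgcs1, Mvd, Fdft1, Nsdhl and Ebp, the SREBP retention gene Insig1, and the fatty acid genes Acly, Fads1, Fads2 and Me1. Their falls ran from 10.1% for Insig1 to 23.8% for Fads2, and Acsl3 rose by 10.3%. No change reached 1.5-fold. The quasi-likelihood test of edgeR, adjusted by Benjamini-Hochberg over 13076 genes, called 16.3% of all genes tested at an adjusted p under 0.05 (7.88% as rises and 8.45% as falls). Among the 37 genes 29.7% were called, with 2.7% rising and 27% falling. The groups did not overlap for 16 of the 37 genes, or 43.2%, against 33.5% of all genes tested. Each of the 37 had at least 268 counts in every library, whereas all genes tested include genes with far fewer. With a filter at a mean of 1 CPM, 2126 of 11961 genes were called. The part of count depth in these shares was not tested. The median log2 fold change was −0.0634 over the 37 genes and −0.000824 over all genes, and 73.0% of the 37 had a negative value against 50.2% of all genes. The 37 genes were chosen with earlier results of these data known, so these shares and medians are not independent support.

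**Figure D1:**
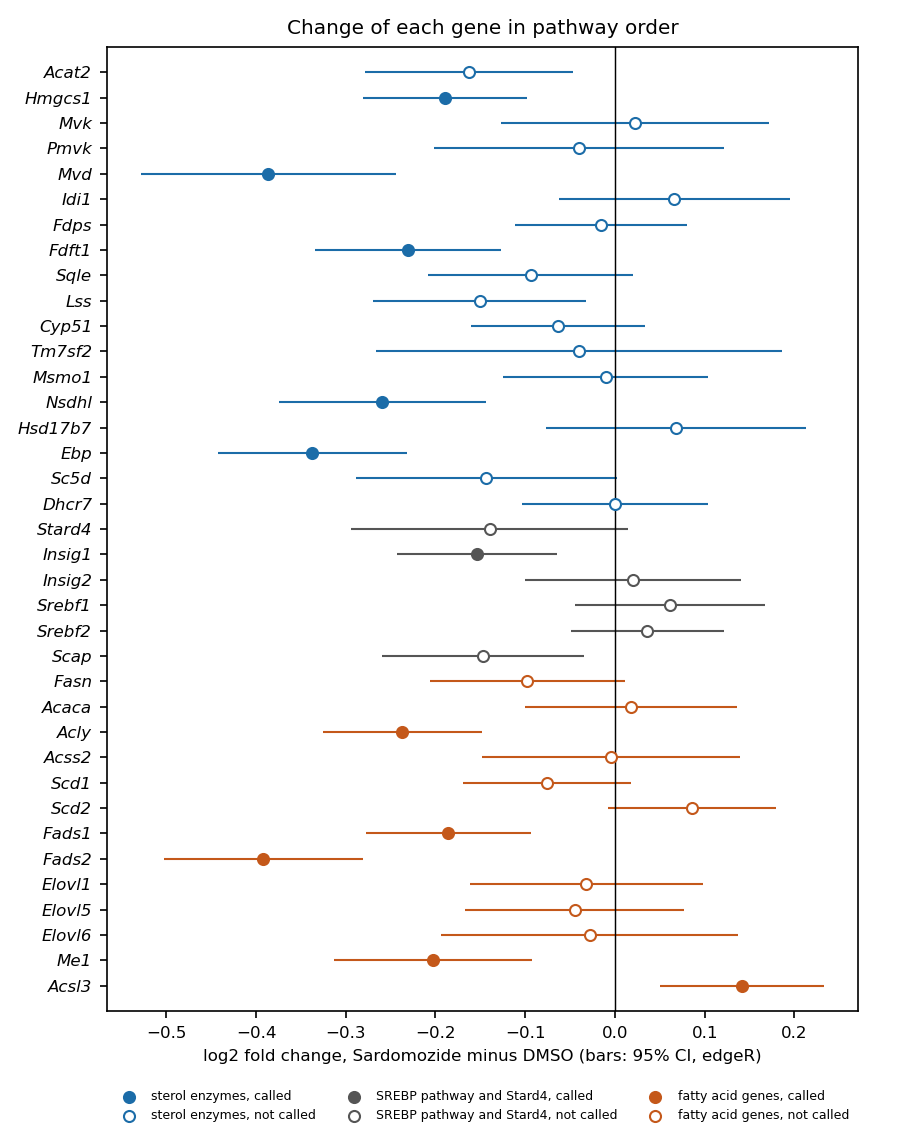
Log2 fold change of each of the 37 genes (Sardomozide minus DMSO, edgeR, 3 libraries a group) in pathway order, with 95% confidence intervals as bars. Filled points had an adjusted p under 0.05. The 10 falls are spread over the 3 groups of genes, and Acsl3 is the single rise.

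By arm, of 18 sterol enzyme genes 5 fell and 0 rose (27.8% called, median log2 fold change −0.0787), and of 13 fatty acid genes 4 fell and 1 rose (38.5% called, median −0.0448). Of the 6 control genes 1 fell and 0 rose, a share of 16.7% called, close to the 16.3% of all genes. At an unadjusted p under 0.05, edgeR counted 7 falls and 0 rises among the sterol enzymes, and DESeq2 and limma-voom called 0 rises among them too. Among the control genes the unadjusted counts were 2 falls and 0 rises, with 0 rises by both other tools. Of all 13076 genes tested, 3871 had an unadjusted p under 0.05 by edgeR, with 1973 falls and 1898 rises. The difference between the arms was not tested. Without Sardomozide replicate 2, 8 sterol enzyme genes and 5 fatty acid genes fell. That library was the highest Sardomozide library for 10 of the 18 sterol enzyme genes and 11 of the 13 fatty acid genes. Leaving it out lowers the Sardomozide level of those genes by construction, so the added falls are no support. In the fits without 1 library, the sterol enzyme median was lowest without Sardomozide replicate 2 (−0.137) and highest without Sardomozide replicate 3 (−0.04). For the fatty acid genes the median was lowest without Sardomozide replicate 2 (−0.106) and highest without Sardomozide replicate 1 (−0.0143). No other fit without 1 library gave more falls among the sterol enzymes. Of 2135 genes called by the main test, 1650 kept their call in the fit without Sardomozide replicate 2. The genes added by that fit were Acat2 (adjusted p = 0.0409), Sqle (0.0266), Lss (0.0382) and Fasn (0.0273).

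Levels differed far more between the genes than between the treatments. Per kilobase of annotated exon, Scd2 and Scd1, which encode stearoyl-CoA desaturases, stood highest at 418 ± 10.6 and 149 ± 1.89 CPM per kb with DMSO (SD, n = 3). Srebf2, the gene of the SREBP that chiefly drives sterol synthesis, followed at 67.8 ± 1.23, next to Hmgcs1 at 67.3 ± 3.08, and these neighbours did not differ beyond their spread. Srebf1 stood lower at 26.7 ± 1.62 CPM per kb, and Insig1 at 43.7 ± 0.55 stood above Insig2 at 16.7 ± 0.948. The lowest were Acss2 (3.0 ± 0.206), the gene of cytosolic acetyl-CoA synthetase, and Tm7sf2 (2.39 ± 0.0745), one of the genes of sterol C14 reduction. Exon lengths joined all annotated transcripts of a gene, so a gene with long unused exons has a level that is too low on this scale. Acss2 had 10163 exon bases against 2931 in its longest coding transcript, Tm7sf2 4403 against 1498, and Fdps 4208 against 1382. The ranks of these genes therefore depend on the length used.

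**Figure D2:**
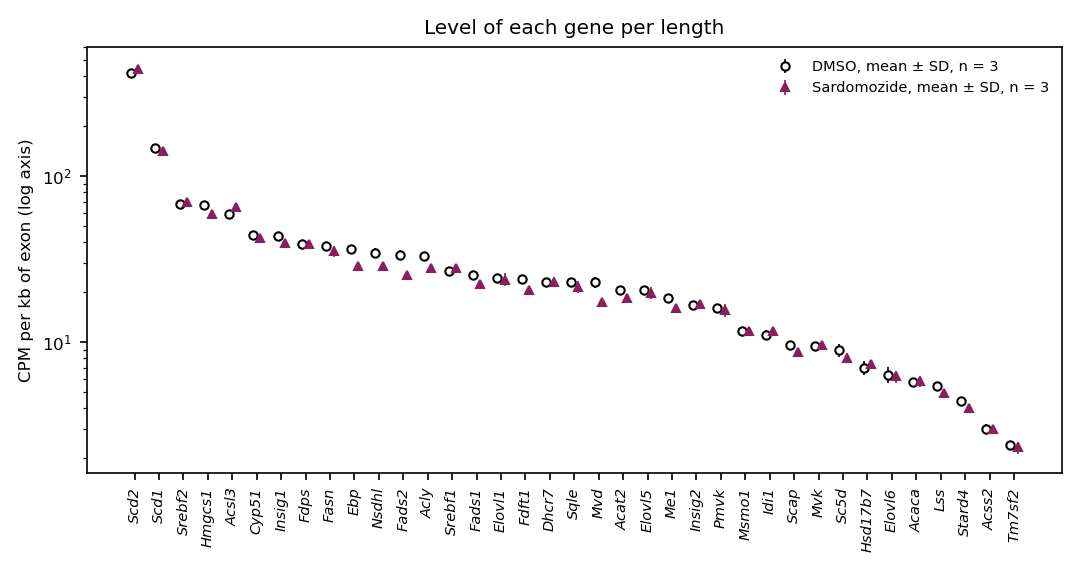
Level of each gene in CPM per kilobase of exon on a log axis, as mean ± SD of 3 libraries, ordered by the DMSO level. Scd2 and Scd1 stand above the others, and Tm7sf2 is lowest on this scale, where the order depends on the exon length used. The values with DMSO (circles) and Sardomozide (triangles) lie close together for each gene.

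Among the genes of the mevalonate steps, Hmgcs1 and Mvd fell. Acat2 encodes the thiolase that joins acetyl-CoA units, and had 50.6, 52.6 and 54.1 CPM with DMSO and 46.0, 48.6 and 46.0 CPM with Sardomozide. The groups did not overlap, but the log2 fold change of −0.16 ± 0.056 (SE) missed the threshold (edgeR adjusted p = 0.0513). Of the 100-base windows of the Acat2 transcript, 35.3% also occur in Acat3, so the Acat2 counts are uncertain. Acat3 itself had 0.97 ± 0.39 CPM with DMSO and 0.80 ± 0.25 CPM with Sardomozide, and its part in the Acat2 count was not tested. Acat2 passed with a filter at a mean of 1 CPM (edgeR adjusted p = 0.0477). Hmgcs1 (chromosome 13, 119690379 to 119708260, GRCm38), the gene of cytosolic HMG-CoA synthase, had 301, 301 and 326 CPM with DMSO and 279, 265 and 270.0 CPM with Sardomozide. All Sardomozide libraries were lower than all DMSO libraries, and the gene fell by 12.3% (log2 fold change −0.19 ± 0.044, edgeR adjusted p = 0.00525). Without DMSO replicate 3, the highest library, the adjusted p was 0.0588. An annotated gene on the opposite strand covers 12.1% of the exon bases of Hmgcs1, and the use of strand in counting is not given in the sources used here.

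Mvd (chromosome 8, 122433601 to 122443422), the gene of mevalonate diphosphate decarboxylase, went from 39.1, 42.6 and 45.9 CPM to 34.3, 31.5 and 31.9 CPM. The DMSO libraries spread more than those with Sardomozide and the groups stayed apart, and the gene fell by 23.5% (log2 fold change −0.39 ± 0.068, edgeR adjusted p = 0.000515). The kinase genes that act between them did not pass. Mvk, the mevalonate kinase gene, had a log2 fold change of 0.02 (95% confidence interval −0.13 to 0.17), and Pmvk, the phosphomevalonate kinase gene, had −0.04 (−0.20 to 0.12). The genes just after Mvd, Idi1 for the isomerase and Fdps for farnesyl diphosphate synthase, had 0.07 (−0.06 to 0.20) and −0.02 (−0.11 to 0.08). A fall as large as that of Mvd lies outside all 4 intervals. Other annotated genes share 75.8% of the 100-base windows of the Fdps transcript and 19.98% of those of Idi1, so those 2 counts are uncertain.

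Fdft1 (chromosome 14, 63145150 to 63179578), whose product squalene synthase commits farnesyl units to sterols, had 97.2, 100.4 and 106.7 CPM with DMSO. With Sardomozide it had 82.5, 87.8 and 89.3 CPM, all below the DMSO libraries, and the gene fell by 14.8% (log2 fold change −0.23 ± 0.05, edgeR adjusted p = 0.00304). Ctsb on the opposite strand overlaps 18.3% of its exon bases. Ctsb had 450 ± 5.81 CPM with DMSO and 427 ± 22.2 CPM with Sardomozide (edgeR adjusted p = 0.268), and its part in the Fdft1 count was not tested.

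The next steps, from squalene to the first demethylated sterols, did not pass. Sqle, the squalene epoxidase gene, had 126, 124 and 133 CPM with DMSO against 115, 132 and 113 CPM with Sardomozide, where replicate 2 lay among the DMSO values. Lss, the lanosterol synthase gene, had a log2 fold change of −0.15 ± 0.057 (edgeR adjusted p = 0.0773) with groups that did not overlap. Cyp51, which encodes lanosterol demethylase, Tm7sf2, and Msmo1, which encodes the methyl sterol oxidase, had log2 fold changes of −0.06, −0.04 and −0.01 with overlapping groups.

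Nsdhl and Ebp, both on the X chromosome, fell. Nsdhl (72918557 to 72958514) encodes the decarboxylating dehydrogenase that works after Msmo1, and went from 91.7, 97.4 and 105.2 CPM to 85.9, 83.1 and 77.0 CPM. It fell by 16.5% (log2 fold change −0.26 ± 0.055, edgeR adjusted p = 0.00288), with a gap of only a few CPM between the closest libraries of the groups. Ebp (8185329 to 8193512) encodes the sterol isomerase that moves the ring double bond, and went from 82.4, 88.2 and 81.8 CPM to 67.4, 64.4 and 68.1 CPM. Its groups were well apart, it fell by 20.8%, which is within the errors of the fall of Mvd, and its adjusted p was the smallest among the sterol enzymes (log2 fold change −0.34 ± 0.051, edgeR adjusted p = 0.000107). Hsd17b7, the gene of the ketoreductase that works with Nsdhl, had a log2 fold change of 0.07 (95% confidence interval −0.08 to 0.21). Sc5d, the desaturase gene, had −0.14 ± 0.07 (edgeR adjusted p = 0.175), and Dhcr7, the gene of the reductase that ends one branch of the pathway, had 0.00 (−0.10 to 0.10).

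**Figure D3:**
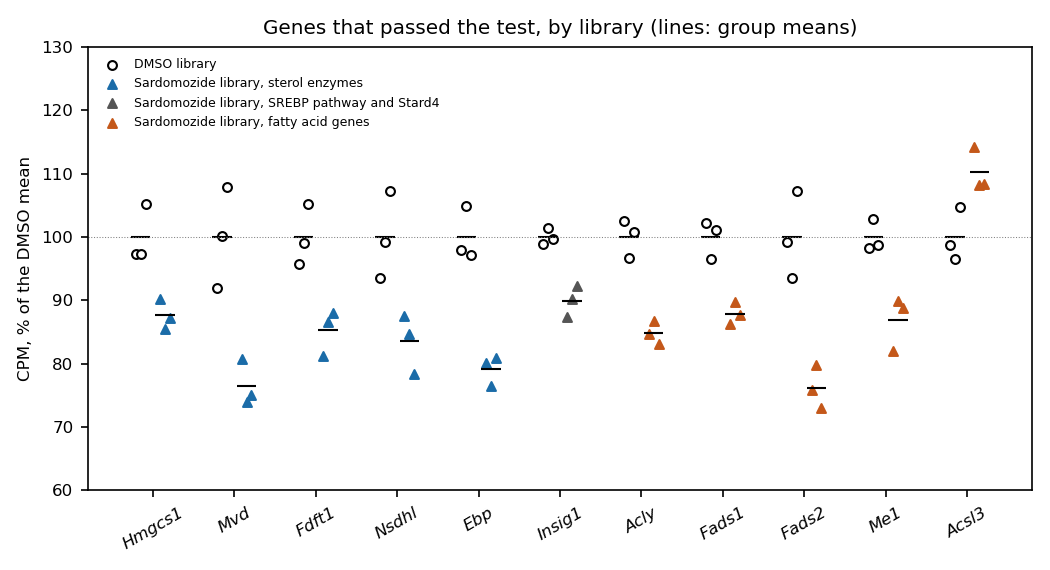
CPM of the 11 genes that passed edgeR's test in each library, as a percent of the gene's DMSO mean, with group means as lines (3 libraries a group; the axis starts at 60%). The groups do not overlap for any of the 11 genes, against no overlap for 33.5% of all genes tested. The 11 were chosen by the test on these same libraries, so their separation adds no support. Mvd and Fads2 lie lowest with Sardomozide.

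Among the control genes, those of the transcription factors did not pass. Srebf2 had 483, 482 and 498 CPM with DMSO and 490.2, 498 and 511 CPM with Sardomozide (log2 fold change 0.04, 95% confidence interval −0.05 to 0.12). Srebf1 had 158, 140.3 and 152 CPM against 155, 166 and 149 CPM (0.06, −0.04 to 0.17). Both pairs of groups overlapped. The counts measure the transcripts and not the cleaved, active proteins. Scap, the escort gene, had 73.4, 70.2 and 71.8 CPM with DMSO and 68.5, 60.5 and 65.4 CPM with Sardomozide. These groups did not overlap, with a log2 fold change of −0.15 ± 0.054 (edgeR adjusted p = 0.0693), and Scap passed without Sardomozide replicate 1 (0.0286).

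Insig1 (chromosome 5, 28071363 to 28078662), an SREBP target whose product also retains SCAP, had 134, 137 and 135 CPM with DMSO and 118, 122 and 125 CPM with Sardomozide. The libraries of each group lay close together and the gene fell by 10.1% (log2 fold change −0.15 ± 0.043, edgeR adjusted p = 0.0177). It no longer passed without DMSO replicate 2 or DMSO replicate 3 (edgeR adjusted p = 0.0699 and 0.0566). Insig2, the paralog that is less dependent on SREBP, had a log2 fold change of 0.02 (95% confidence interval −0.10 to 0.14). Stard4, another SREBP target, had 24.7, 24.2 and 24.95 CPM against 21.7, 23.3 and 21.9 CPM, without overlap, and a log2 fold change of −0.14 ± 0.074 (edgeR adjusted p = 0.217).

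On the fatty acid side, a gene that supplies acetyl-CoA and one that supplies reducing power fell. Acly (chromosome 11, 100476353 to 100528000), the ATP-citrate lyase gene, had 179, 169 and 176 CPM with DMSO and 148, 151 and 145 CPM with Sardomozide. The groups were far apart relative to their spread, and the gene fell by 15.1% (log2 fold change −0.24 ± 0.043, edgeR adjusted p = 0.000642). Me1 (chromosome 9, 86581371 to 86695953), the gene of the cytosolic malic enzyme that makes NADPH, went from 69.4, 72.7 and 69.8 CPM to 57.9, 63.6 and 62.7 CPM. It fell by 13.1% (log2 fold change −0.20 ± 0.053, edgeR adjusted p = 0.0116), and the call was lost without DMSO replicate 2 (0.0592). Other annotated genes share 14.5% of the 100-base windows of the Me1 transcript. Acss2, which makes acetyl-CoA from acetate, had a log2 fold change of 0.00 (95% confidence interval −0.15 to 0.14).

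The synthase genes themselves did not pass. Fasn, the fatty acid synthase gene, had 432, 413 and 398 CPM with DMSO and 361, 421 and 379 CPM with Sardomozide, where replicate 2 lay among the DMSO values (log2 fold change −0.10 ± 0.052, edgeR adjusted p = 0.221). Acaca, which encodes acetyl-CoA carboxylase 1, had a log2 fold change of 0.02 (95% confidence interval −0.10 to 0.14), and another annotated gene shares 42.8% of the windows of its transcript. The elongase genes Elovl1, Elovl5 and Elovl6 had −0.03, −0.04 and −0.03, all with overlapping groups.

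Of the front-end desaturase genes, Fads1 and Fads2 fell. Fads2 (chromosome 19, 10062765 to 10101746), the delta-6 desaturase gene, went from 109.6, 103 and 118 CPM to 83.8, 88.0 and 80.6 CPM. It fell by 23.8% (log2 fold change −0.39 ± 0.053, edgeR adjusted p = 4.05e-05), about as much as Mvd, and the highest Sardomozide library lay well below the lowest DMSO library. Fads1 (10182888 to 10196877), the delta-5 desaturase gene that lies 81.1 kb away on the same chromosome, went from 125, 118 and 124 CPM to 106, 110.0 and 107 CPM, also without overlap (log2 fold change −0.19 ± 0.044, edgeR adjusted p = 0.00601). Fads3, a further gene of the family, had 299 ± 7.65 CPM with DMSO and 305 ± 2.1 CPM with Sardomozide and did not pass (edgeR adjusted p = 0.708).

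Of the stearoyl-CoA desaturases, Scd1 had 718, 725 and 737 CPM with DMSO and 697, 720.1 and 651 CPM with Sardomozide, with overlap (log2 fold change −0.08 ± 0.045, edgeR adjusted p = 0.276). Scd2 had 2240, 2259 and 2349 CPM against 2382, 2520 and 2365 CPM, without overlap but by a narrow gap (0.09 ± 0.045, edgeR adjusted p = 0.213). Neither passed. Other Scd genes share 2.66% of the 100-base windows of the Scd1 transcript and 0.9% of those of Scd2.

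Acsl3 (chromosome 1, 78657825 to 78707743), which encodes an acyl-CoA synthetase of the endoplasmic reticulum and lipid droplets, was the gene that rose. It had 253, 248 and 269 CPM with DMSO and 293, 278 and 278 CPM with Sardomozide. The groups did not overlap, but the gap between DMSO replicate 3 and the closest Sardomozide libraries was small (log2 fold change 0.14 ± 0.044, edgeR adjusted p = 0.0317). Leaving out DMSO replicate 1, DMSO replicate 2, Sardomozide replicate 1 or Sardomozide replicate 3 ended the call (edgeR adjusted p = 0.12, 0.155, 0.0869 and 0.0503). Utp14b on the same strand covers 5.6% of its exon bases, and itself rose, having 15.2 ± 0.861 CPM with DMSO and 18.7 ± 0.234 CPM with Sardomozide (0.30 ± 0.086 on the log2 scale, edgeR adjusted p = 0.0213). Its part in the Acsl3 count was not tested.

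Libraries of a group also differed from one another across the genes. DMSO replicate 3 was the highest DMSO library for 13 of the 18 sterol enzyme genes, and Sardomozide replicate 2 the highest Sardomozide library for 10 of them and for 11 of the 13 fatty acid genes. Relative to each gene's DMSO mean, the mean log2 CPM of the sterol enzyme genes was −0.0497, −0.00625 and 0.0559 in DMSO replicates 1 to 3 and −0.111, −0.0715 and −0.144 in Sardomozide replicates 1 to 3. By this mean the Sardomozide libraries lay below the DMSO libraries, by the smallest margin between DMSO replicate 1 and Sardomozide replicate 2. By the median they did not separate. Sardomozide replicate 2 (−0.0174) lay between DMSO replicate 1 (−0.0504) and DMSO replicate 2 (−0.0129). For the fatty acid genes the means were −0.0009, −0.0341 and 0.035 with DMSO and −0.123, −0.0139 and −0.107 with Sardomozide. By these means Sardomozide replicate 2 lay inside the range of the DMSO libraries. By the median it lay above them (0.0241, against 0.0198 in DMSO replicate 3).

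**Figure D4:**
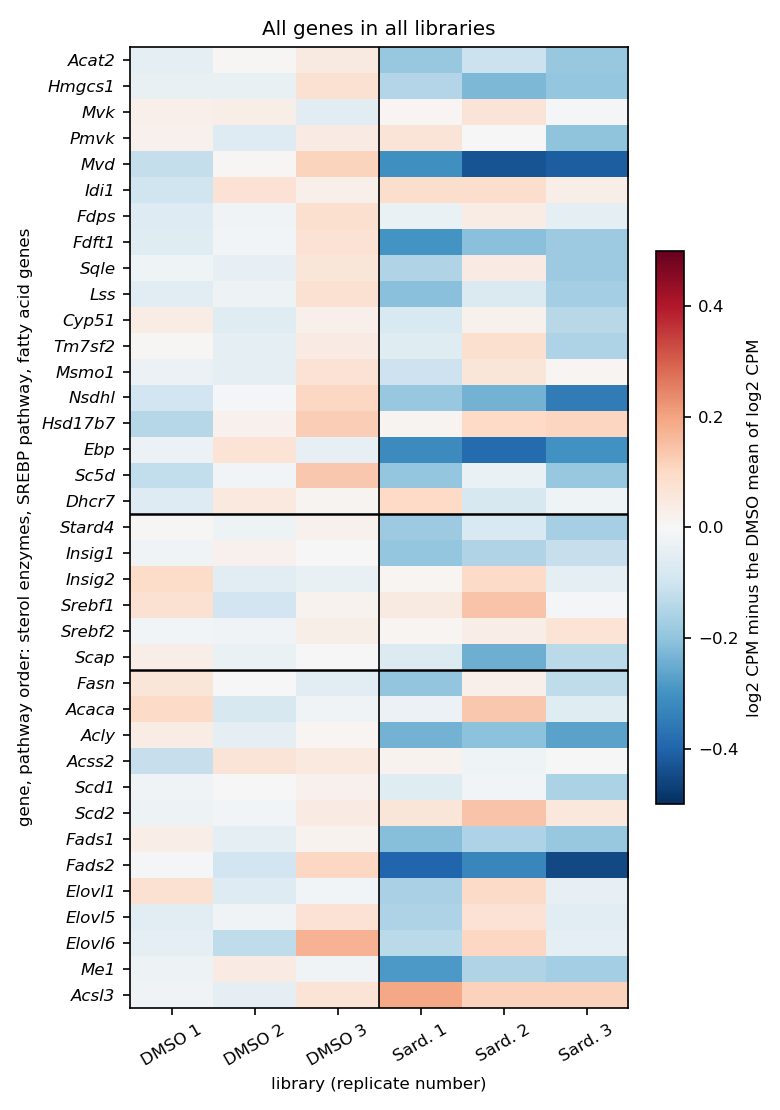
Log2 CPM of each of the 37 genes in each of the 6 libraries minus the mean of the DMSO libraries, with genes in pathway order (horizontal lines part sterol enzymes, SREBP pathway with Stard4, and fatty acid genes). All 10 genes that fell are lower in all 3 Sardomozide libraries than in any DMSO library, as are Acat2, Lss, Stard4 and Scap. Many of the genes that did not pass are near the DMSO level in Sardomozide replicate 2.

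SREBPs bind sterol regulatory elements and commonly act beside the factor NF-Y, which binds the CCAAT box. RefSeq promoters (GRCm38.p6) matched 30 of the 37 genes, with 40 promoters in all, and the 250 bases before each start were searched on both strands for TCACNCCAC (a core of the sterol element), CCAAT and CACGTG (an E-box). No promoter was matched for Fdps, Fdft1, Sqle, Stard4, Scd1, Scd2 and Fads1. Fdft1 and Fads1, which fell, are thus missing from the promoter counts. Of the promoters below, that of Hmgcs1 is shown for its match to the sterol element core, those of Mvd, Ebp and Fads2 for the size of the genes' falls, and that of Mvk as a sterol gene that did not pass. They are the 250 bases up to the start on the gene's strand, 5′ to 3′, with matches to the 3 motifs in capitals (CCAAT on the other strand reads ATTGG).
Hmgcs1, chr13:119690101-119690350, plus strand: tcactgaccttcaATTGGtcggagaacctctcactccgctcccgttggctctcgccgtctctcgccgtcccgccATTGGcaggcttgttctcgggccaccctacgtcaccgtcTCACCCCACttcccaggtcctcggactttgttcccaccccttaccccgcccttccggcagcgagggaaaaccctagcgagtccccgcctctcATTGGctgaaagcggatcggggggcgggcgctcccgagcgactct
Mvd, chr8:122443423-122443672, minus strand: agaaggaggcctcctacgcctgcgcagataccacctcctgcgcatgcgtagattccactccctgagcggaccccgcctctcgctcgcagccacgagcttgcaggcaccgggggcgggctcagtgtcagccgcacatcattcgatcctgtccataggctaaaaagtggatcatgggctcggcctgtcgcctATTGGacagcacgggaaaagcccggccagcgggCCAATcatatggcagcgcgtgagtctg
Ebp, chrX:8193513-8193762, minus strand: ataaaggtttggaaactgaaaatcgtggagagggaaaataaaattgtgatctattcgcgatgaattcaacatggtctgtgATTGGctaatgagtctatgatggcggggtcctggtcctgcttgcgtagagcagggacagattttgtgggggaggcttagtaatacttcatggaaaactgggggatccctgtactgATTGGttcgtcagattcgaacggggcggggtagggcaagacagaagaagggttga
Fads2, chr19:10101504-10101753, minus strand: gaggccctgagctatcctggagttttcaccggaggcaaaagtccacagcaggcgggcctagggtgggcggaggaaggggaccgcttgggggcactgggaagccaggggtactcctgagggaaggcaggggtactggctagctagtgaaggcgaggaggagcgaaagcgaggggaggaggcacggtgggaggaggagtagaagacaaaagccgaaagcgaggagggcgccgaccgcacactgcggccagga
Mvk, chr5:114444019-114444268, plus strand: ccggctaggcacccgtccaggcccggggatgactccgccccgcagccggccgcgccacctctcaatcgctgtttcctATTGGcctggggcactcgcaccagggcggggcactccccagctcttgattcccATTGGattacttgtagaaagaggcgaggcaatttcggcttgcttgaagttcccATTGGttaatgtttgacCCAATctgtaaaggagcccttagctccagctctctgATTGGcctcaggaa

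Hmgcs1 held TCACCCCAC, the single match to the sterol element core among the 40 promoters (2.5%, against 1.02% of promoters of all genes tested). CCAAT was present in 25 of the 40 promoters (62.5%), and 35.0% of promoters of all genes tested held it. It was in 14 of 18 sterol enzyme promoters (77.8%) and 6 of 12 fatty acid promoters (50%). Hmgcs1 had 3 matches, Mvd and Ebp 2 each, Mvk 5 and Fads2 0. Of promoters not printed, that of Nsdhl had 2 and that of Acly 0. Among genes that fell 6 of 9 promoters held CCAAT, and among genes that did not pass 18 of 30 did (66.7% and 60%). CACGTG was in 6 of the 40 promoters (15%, against 8.21%), among them that of Insig1. GGGCGG (a GC box), which was also counted but is not marked in capitals, was in 29 of the 40 (72.5%, against 57.0%). A match describes letters in this window and does not show binding. Only 1 form of the sterol element core was searched. A promoter without a match may hold an element of other letters or outside the window.

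Genes around the pathway were read from 5 lists of related function, and their shares called are to be read against the 16.3% of all genes tested. Their unadjusted counts, at an edgeR p under 0.05, stand beside 1898 rises and 1973 falls among all 13076 genes tested. Of 15 genes of the isoprenoid branches 1 rose and 0 fell (6.67% called), namely Pdss2, which makes the ubiquinone side chain, which went from 8.27 ± 0.321 up to 11.1 ± 1.04 CPM (0.43 ± 0.11 on the log2 scale, edgeR adjusted p = 0.012). Unadjusted counts for that list were 3 rises and 0 falls, with 0 falls by DESeq2 and limma-voom. Without DMSO replicate 3 the list had 0 rises, and without Sardomozide replicate 2 it had 2. Of 22 genes of sterol uptake, storage and efflux 0 rose and 1 fell (4.55% called), Npc2, which moves cholesterol out of lysosomes (−0.20 ± 0.05, edgeR adjusted p = 0.00765), with 1 rise and 3 falls unadjusted and 0 rises by both other tools. With no filter 1 gene of the list rose and 2 fell, without DMSO replicate 3 there was 1 rise, and without Sardomozide replicate 2 or 3 there were 3 and 0 falls. Of 12 genes of SREBP processing and sterol-regulated degradation 0 rose and 1 fell (8.33% called), Erlin2, whose product helps to degrade sterol-regulated proteins (−0.18 ± 0.056, edgeR adjusted p = 0.0352), with 0 rises and 1 fall unadjusted and 0 rises by both other tools. The list had 0 falls with DESeq2, and 0 without DMSO replicate 2, DMSO replicate 3, Sardomozide replicate 1 or Sardomozide replicate 2.

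Of 22 further tested genes of fatty acid synthesis and activation, 1 rose and 4 fell (22.7% called). The falls were Slc25a1, the mitochondrial citrate exporter gene that feeds Acly, which went from 43.6 ± 2.16 down to 35.9 ± 2.01 CPM (−0.28 ± 0.064 on the log2 scale, edgeR adjusted p = 0.00485), Mid1ip1, which activates acetyl-CoA carboxylase (−0.20 ± 0.047, 0.00593), Acsl6 (−0.22 ± 0.057, 0.0133) and Tecr, a reductase of fatty acid elongation. Acsl1, another acyl-CoA synthetase gene, rose from 42.7 ± 2.0 to 49.4 ± 2.01 CPM (edgeR adjusted p = 0.0192). That list had 0 rises without DMSO replicate 1 or 3 or without Sardomozide replicate 1 or 3, and 2 falls without DMSO replicate 3 or Sardomozide replicate 2. Of 20 tested genes of glycerolipid synthesis and lipid droplets 3 rose and 1 fell (20% called, near the share of all genes). The acyltransferase genes Agpat3, Gpam and Agpat5 were higher by 0.17, 0.18 and 0.21 on the log2 scale, and the droplet coat gene Plin2 fell by 0.19 on the log2 scale. Without DMSO replicate 1 or Sardomozide replicate 3, 0 genes of this list rose and 0 fell. It had 1 rise without DMSO replicate 3 or Sardomozide replicate 2, and 0 falls without DMSO replicate 2. The medians of the 5 lists ran from −0.0157 to 0.0456.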

How the data were processed

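Counts per gene symbol from 6 libraries of C2C12 myotubes (3 DMSO, 3 Sardomozide) were read from one deposited table of raw read counts per library. STAR, StringTie, DESeq2, GRCm38 and mm10 are listed, without versions, in the submitters' processing notes. For the annotation, multi-mapping reads and strand setting, the answer is not given in the sources used here. Groups came from the sample titles. Genes were filtered with filterByExpr (minimum count 10, minimum total 15), scaled by TMM and tested with edgeR 4.0.16 in R 4.3.3 (glmQLFit, robust, glmQLFTest, two-sided, only treatment in the model), with Benjamini-Hochberg adjustment over 13076 genes and calls under 0.05. Standard errors derive from the fold change and F statistic. Ufd1, Gpat3, Gpat4 and Mymk were matched by older symbols. All 37 genes and the lists were chosen with earlier results of these data known. All 37 were described, with library values for each called gene, and up to 4 called genes of each other list with the smallest adjusted p were named. Tecr, Fads3, Utp14b and Ctsb are outside that rule, picked once their values had been seen. Coordinates, exon lengths and overlaps are from GENCODE M21 (GRCm38), and shared windows from its transcripts. A count of 0 allows 3 counts, or 0.0817 to 0.118 CPM by library, for counting error only. Replicates differed by more than sampling noise (chi-square per degree of freedom 5.45 to 16.1). In simulated counts for 13060 genes, the test recovered 24 of 50 genes changed by 1.2-fold and 42 of 50 changed by 1.5-fold, with 8 false calls. Alternatives were RLE and no scaling factors, no filter, a mean of 1 CPM, DESeq2 1.42.0, limma-voom (limma 3.58.1), no robust estimation, the replicate number as a block, calls under 0.01 and fits without each library in turn.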

Additional observations from a re-analysis of the deposited data

How the results depend on the processing

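Across the 15 alternatives, 513 of 555 fold changes of the 37 genes kept their direction and their side of the threshold, 12 lost and 6 gained the call, and 24 changed sign. None of the sign changes concerned a gene called by the main test. Dhcr7, at 0.000201 in the main test, was at −0.000106 with RLE scaling, −0.000763 with a filter at a mean of 1 CPM, −0.0015 with limma-voom and −0.00113 with the replicate block. Without DMSO replicate 1 Mvd fell more than Fads2, and without DMSO replicate 3 Ebp fell more than Mvd, so these 3 falls have no fixed order. The other sign changes came from leaving out 1 library, where the log2 fold change ran from −0.00557 to 0.0379 for Mvk, −0.096 to 0.0329 for Pmvk, −0.0463 to 0.0253 for Fdps, −0.105 to 0.0125 for Tm7sf2, −0.0473 to 0.0353 for Msmo1, −0.0519 to 0.0392 for Dhcr7, −0.0195 to 0.0663 for Insig2, −0.0439 to 0.0669 for Acaca, −0.0583 to 0.0278 for Acss2, −0.101 to 0.0302 for Elovl1, −0.106 to 0.00809 for Elovl5 and −0.0949 to 0.0654 for Elovl6. With 1 library left out, 1326 to 1952 genes were called in all, 4 to 8 sterol enzyme genes fell, 0 or 1 fatty acid genes rose, 0 to 2 control genes fell, and of the genes in the 5 related lists 1 to 5 rose and 4 to 6 fell (5 and 7 with all libraries). Such fits have fewer samples; the cause was not tested beyond that. At an adjusted p under 0.01, 1079 genes were called, with 0 rises among the fatty acid genes, 0 falls among the control genes, and 1 rise and 3 falls in the related lists.

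With the replicate number as a block 1820 genes were called, and the pairing changed 1 call among the 37 genes: 0 fatty acid genes rose, since Acsl3 had an edgeR adjusted p of 0.0591. Same-numbered libraries did not deviate together (correlations 0.0219, −0.0233 and −0.0178). With 3 libraries a group, centred within the group, a weak shared factor could be missed. Only Sardomozide replicate 1 correlated best with its own number, at 0.0219 against 0.0217 with DMSO replicate 3. Depth gave each of the 37 genes at least 268 counts in every library. The simulated 1.2-fold changes were recovered for 24 of 50 genes. Those genes were drawn at random from all that passed the filter, so this is not the recovery for the 37. Among the 37, Acat2 at a log2 fold change of −0.16 did not pass while Insig1 at −0.15 did. A fall of that size can thus go uncalled.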

Other observations

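The ratio of Scd2 to Scd1 was looked at after their values were seen, since the fold changes of these stearoyl-CoA desaturase genes had opposite signs although neither passed. Per kilobase of exon, Scd2 stood 2.79, 2.79 and 2.86 times as high as Scd1 in the DMSO libraries and 3.06, 3.13 and 3.25 times as high in the Sardomozide libraries. The ratio was higher in all 3 Sardomozide libraries than in any DMSO library. It was formed from the values it describes, so no test is given. The genes lie 87.6 kb apart on chromosome 19.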
